A study of Homo sapiens with 3 samples.

Results

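The regions described here are the 1579 BRG1 peaks that lay inside the body of a protein-coding gene and away from its ends, on the arms of chromosomes 1 to 22, in 12Z, a human cell line of endometriotic epithelium. They were chosen from the deposited overlap list by position alone, under a rule set with earlier results of these data known. Each had its midpoint in a coding gene body and no base within 3 kb of either end of any coding gene, and stretches around the centromeres and the short arms of the acrocentric chromosomes were left out. They made up 24.9% of the 6343 peaks of the deposited overlap list, called shared peaks here, and 41.8% of the 3780 shared peaks on the arms. The other arm peaks were 423 at gene ends (any base within 3 kb of an end), 1098 intergenic peaks within 100 kb of a coding gene and 680 farther away. All 1579 lay wholly inside the gene that held their midpoint, which follows from the 3 kb rule, and 21 lay in 2 overlapping genes.

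BRG1 was mapped by ChIP-seq with an anti-BRG1 antibody in wild-type 12Z cells, with 2 immunoprecipitated libraries (replicates 1 and 2) and 1 input library. All 3 libraries came from the same unedited line, grown in the same medium, so the design holds no treatment to compare. Whether the replicates were separate cultures is not stated in the labels, so agreement between them may be technical. Each peak carries the authors' fold enrichment over background and a −log10 q-value. Read counts are not part of the peak lists, so depth is unknown, and every interval below covers the counting of peaks or genes only.

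BRG1 is the ATPase, encoded by SMARCA4, that drives many SWI/SNF chromatin remodelling complexes. These complexes slide or evict nucleosomes and keep regulatory DNA accessible. They occupy promoters and also enhancers, many of which lie in introns, either of the gene they act on or of a neighbour. A gene that holds a peak is therefore called its host here, not its target. Whether a peak fell in an exon or an intron was not analysed here.

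Among the gene-body peaks, 34 touched a window around a further transcript start of their own host (250 bases before to 50 after it), in 34 different genes. The start sequences that RefSeq gives for these windows are the part of the peaks that could be read here. From the 28 peaks that held such a window whole, the 8 with the highest mean fold percentile in the 2 replicate lists are shown, with those of AOPEP and SMAD3, which are among the 12 genes with the most peaks. KCNMA1 is in both sets. Each line gives the 250 bases before the start, 5′ to 3′ in the gene's direction, on build GRCh38.p14. Capitals mark the letters TGACTCA or TGAGTCA, bound by the AP-1 family of transcription factors, and the letters GGAATG or CATTCC, the core bound by TEAD factors.
ZBTB38, chr3:141368254-141368503, plus strand: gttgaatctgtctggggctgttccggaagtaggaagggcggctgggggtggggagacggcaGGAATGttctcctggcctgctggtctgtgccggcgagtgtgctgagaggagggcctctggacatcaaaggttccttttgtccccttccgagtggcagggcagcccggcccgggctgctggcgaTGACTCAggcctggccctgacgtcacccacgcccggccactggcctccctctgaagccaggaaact
RNF43, chr17:58402722-58402971, minus strand: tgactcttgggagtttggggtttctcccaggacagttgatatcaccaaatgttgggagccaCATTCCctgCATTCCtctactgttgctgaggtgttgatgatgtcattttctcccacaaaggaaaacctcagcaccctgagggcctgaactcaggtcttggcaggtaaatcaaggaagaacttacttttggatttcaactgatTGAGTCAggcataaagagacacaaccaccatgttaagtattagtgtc
KCNMA1, chr10:77350762-77351011, minus strand: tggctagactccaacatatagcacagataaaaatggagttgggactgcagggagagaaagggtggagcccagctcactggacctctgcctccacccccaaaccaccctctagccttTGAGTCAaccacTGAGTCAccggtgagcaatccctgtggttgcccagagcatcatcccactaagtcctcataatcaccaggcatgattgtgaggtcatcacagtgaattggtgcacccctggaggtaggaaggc
MEF2C, chr5:88785512-88785761, minus strand: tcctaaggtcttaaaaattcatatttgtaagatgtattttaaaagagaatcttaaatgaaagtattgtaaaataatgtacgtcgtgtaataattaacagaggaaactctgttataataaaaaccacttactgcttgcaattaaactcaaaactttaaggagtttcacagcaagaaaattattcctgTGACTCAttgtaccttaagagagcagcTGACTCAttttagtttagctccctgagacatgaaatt
SMAD3, chr15:67125492-67125741, plus strand: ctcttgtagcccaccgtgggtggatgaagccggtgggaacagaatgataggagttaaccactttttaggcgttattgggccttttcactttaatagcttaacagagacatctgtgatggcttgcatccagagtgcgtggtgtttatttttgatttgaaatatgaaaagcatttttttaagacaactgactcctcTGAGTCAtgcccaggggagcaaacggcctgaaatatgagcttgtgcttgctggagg
SH3BP4, chr2:234981124-234981373, plus strand: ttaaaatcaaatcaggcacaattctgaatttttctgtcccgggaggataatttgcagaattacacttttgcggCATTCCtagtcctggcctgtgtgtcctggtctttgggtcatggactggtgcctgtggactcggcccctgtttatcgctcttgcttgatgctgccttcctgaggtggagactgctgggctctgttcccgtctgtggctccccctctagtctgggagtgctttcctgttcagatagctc
HDAC9, chr7:18509020-18509269, plus strand: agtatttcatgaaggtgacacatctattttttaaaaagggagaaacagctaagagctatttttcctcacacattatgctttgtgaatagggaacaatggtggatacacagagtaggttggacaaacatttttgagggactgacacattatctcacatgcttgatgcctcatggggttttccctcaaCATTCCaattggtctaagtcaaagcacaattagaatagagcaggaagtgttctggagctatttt
MGAT5B, chr17:76872397-76872646, plus strand: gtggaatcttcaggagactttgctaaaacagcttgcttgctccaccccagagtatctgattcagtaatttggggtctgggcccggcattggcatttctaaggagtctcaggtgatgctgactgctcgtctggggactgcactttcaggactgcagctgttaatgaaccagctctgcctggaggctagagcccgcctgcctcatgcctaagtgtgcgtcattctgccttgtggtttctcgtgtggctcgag
KRT8, chr12:52926470-52926719, minus strand: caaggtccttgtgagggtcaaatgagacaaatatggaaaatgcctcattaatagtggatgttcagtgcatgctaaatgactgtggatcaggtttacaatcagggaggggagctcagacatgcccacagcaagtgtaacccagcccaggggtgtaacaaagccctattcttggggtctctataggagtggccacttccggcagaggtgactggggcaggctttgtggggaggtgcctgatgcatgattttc
AOPEP, chr9:94920968-94921217, plus strand: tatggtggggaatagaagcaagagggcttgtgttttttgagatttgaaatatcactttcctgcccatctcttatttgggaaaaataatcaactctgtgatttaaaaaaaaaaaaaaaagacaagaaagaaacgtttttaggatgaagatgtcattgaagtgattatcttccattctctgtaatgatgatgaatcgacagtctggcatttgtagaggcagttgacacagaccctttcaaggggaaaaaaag

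ZBTB38 (a methyl-DNA-binding zinc finger protein) and RNF43 (a ubiquitin ligase that removes Wnt receptors) held both kinds of letters. KCNMA1 (the BK potassium channel) and MEF2C (a transcription factor of muscle, neurons and other lineages) each held the AP-1 letters at 2 places, and SMAD3 (which carries TGF-beta signals to the nucleus) at 1. SH3BP4 and HDAC9 held the TEAD letters alone. MGAT5B, KRT8 and AOPEP held neither in these 250 bases. By the choice made above, 8 of the 10 peaks had mean fold percentiles of 84.9 or more over both replicates, where the median of all gene-body peaks was 72.8. The ZBTB38 peak, chr3:141368162-141368885, had a fold of 3.60 in the shared call, 4.54 in replicate 1 and 4.53 in replicate 2. The SMAD3 peak, chr15:67125422-67126575, had 3.20, 3.61 and 3.52 in the same order. The KRT8 peak, chr12:52924228-52927589, was 3362 bp wide and had folds of 3.68, 3.95 and 4.38. KRT8 encodes a keratin of simple epithelia.

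Few internal starts were touched, though a larger share than of searched positions in general. The touched ones held the AP-1 letters more often than the rest. Of 3561 windows of a host's own further starts in the searched gene bodies, 43 (1.21%, Wilson 95% interval 0.898 to 1.62) were touched by a shared peak. A window of the same length would touch a shared peak at 0.212% of the searched positions of the genes in the start table. Of the same windows, 76 (2.13%) were touched by a peak of replicate 1 and 41 (1.15%) by a peak of replicate 2. These replicate counts took peaks of any position class. Of 2631 windows of long non-coding RNA starts in the same bodies, 19 (0.722%) were touched. The touched own starts belonged to genes such as RUNX1 and TCF4 (transcription factors), PALLD, LIMA1, ABLIM1 and SYNPO (actin-associated proteins), RTN4 (a membrane protein of the endoplasmic reticulum) and TXNRD1 (a thioredoxin reductase). These were named after their values were seen. The mean fold percentiles of their peaks ran from 33.2 (RUNX1) to 88.8 (SYNPO). The TCF4 peak had a −log10 q of 1.64, the lowest of all gene-body peaks. The 34 peaks at own starts had a median fold of 3.40 (range 2.84 to 3.87), against 3.49 for the other 1545. Their median width was 1350 bp, against 981 bp. A wider peak is more likely to touch a start window, so width is not independent of how these 34 were picked. In all, 52 of the 1579 peaks (3.29%) touched a start window of either kind. The start table holds no host of 292 of the 1579 peaks, chromosome 8 included, so own starts could be counted only in the other 1287.

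The AP-1 letters stood in 13 of the 43 touched own-start windows (30.2%), in 171 of the 3518 untouched own-start windows in gene bodies (4.86%) and in 1405 of 33725 start windows on chromosomes 1 to 22 (4.17%). Counted once a peak, 13 of 34 peaks (38.2%) had them in at least 1 window. Their hosts were FGF1, FRMD5, KCNMA1, MEF2C, NPLOC4, RNF43, RTN4, SLC1A3, SMAD3, SYT16, TEX2, TNPO1 and ZBTB38. The TEAD letters stood in 15 of 43 touched windows (34.9%), in 445 of 3518 untouched ones (12.6%) and in 4005 of all 33725 (11.9%). Both kinds of letters shared a window in 5 peaks. Both strands were searched, and matches of the 2 motifs could overlap each other by 2 letters. Base composition was similar, with a median of 6 CpG and 52.4% GC in touched windows and 6 CpG and 54.8% GC in untouched ones. In windows with under 5 CpG the AP-1 share was 8 of 14 (57.1%) in touched and 109 of 1473 (7.40%) in untouched windows. With 5 or more it was 5 of 29 (17.2%) against 62 of 2045 (3.03%). Touched windows of long non-coding RNAs gave 4 of 19 (21.1%), against 153 of 2612 (5.86%). These shares are descriptions of letters in windows and were not tested, since windows of 1 gene overlap.

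**Figure D1:**
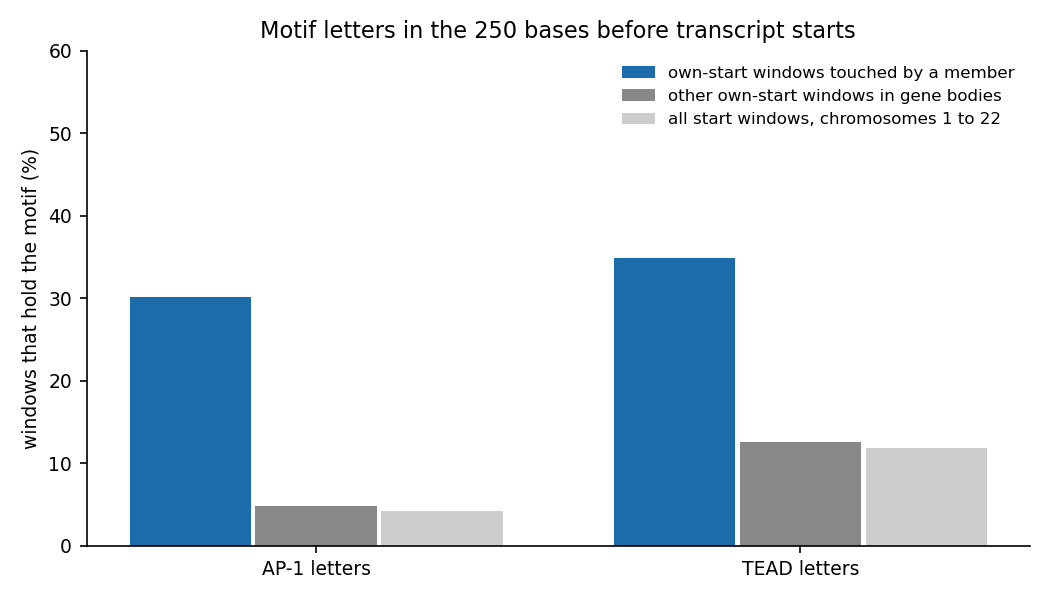
Share of start windows whose 250 bases before the start hold the AP-1 or the TEAD letters on either strand, in percent, for own-start windows touched by a gene-body peak (blue, n = 43), untouched own-start windows in gene bodies (grey, n = 3518) and all start windows (light grey, n = 33725). The touched windows stand at 30.2% for AP-1 and 34.9% for TEAD, above both other sets.

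Gene-body peaks were spread thinly. There were 1.44 per Mb of gene body (exact Poisson 95% interval 1.37 to 1.52), against 1.65 (1.55 to 1.75) in intergenic DNA near genes, 0.964 (0.893 to 1.04) far from genes and 2.26 (2.05 to 2.49) at gene ends. The order of the 4 classes was the same in each replicate alone. Replicate 1 had 4.37 per Mb in gene bodies, against 4.63 near genes, 2.99 far away and 7.53 at gene ends. Replicate 2 had 1.92, against 2.17, 1.38 and 3.06 in the same places. A wide peak is more likely to touch a gene-end window, and when peaks were placed by midpoint alone the density was 1.48 per Mb in gene bodies and 1.98 at gene ends. Gene bodies were denser than intergenic DNA near genes on 7 of 22 chromosomes.

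**Figure D2:**
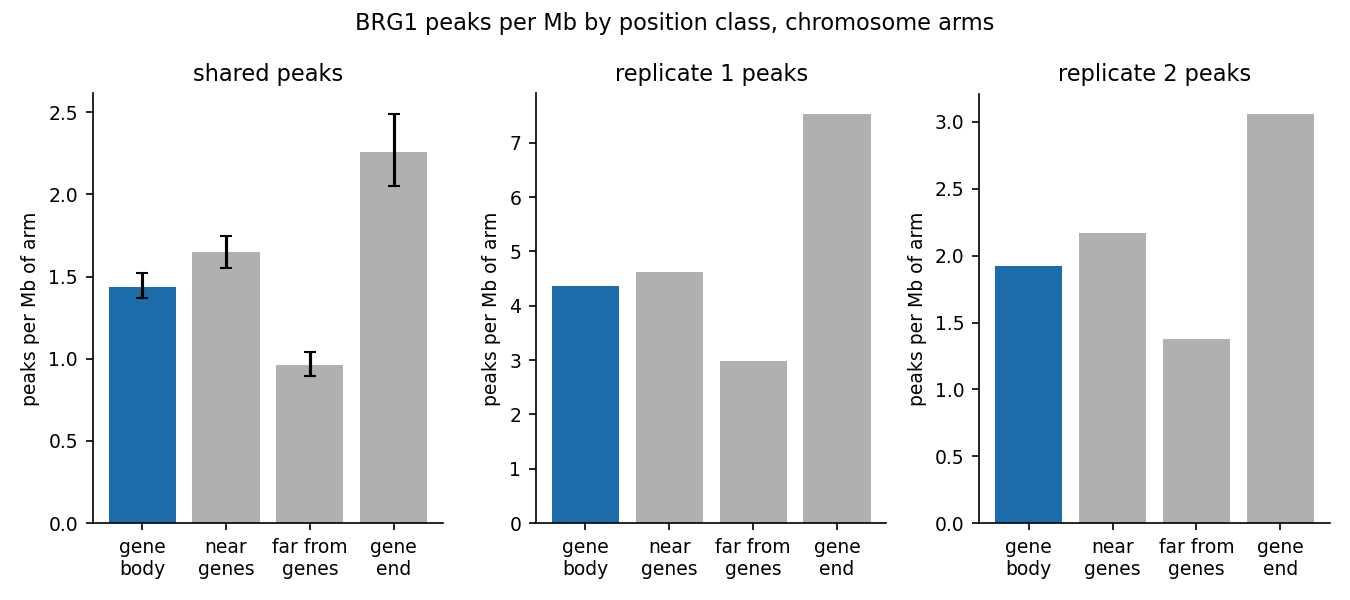
BRG1 peaks per Mb of chromosome arm in gene bodies (blue) and in the 3 other position classes (grey), for shared peaks with exact Poisson 95% intervals and for the peaks of each replicate. Gene bodies, at 1.44 shared peaks per Mb, lie between DNA far from genes (0.964) and gene ends (2.26) in all 3 panels.

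Chromosomes differed widely in how many gene-body peaks they held. Chromosome 5 had 192 peaks, or 3.01 per Mb of gene body, followed by chromosome 15 with 2.39, chromosome 20 with 2.38 and chromosome 17 with 2.27. Chromosome 16 had 8 peaks, or 0.236 per Mb. The intergenic peaks near genes showed a like spread, with 2.83 per Mb on chromosome 5 and 0.334 on chromosome 16, so densities inside and outside genes were high or low together. DNA copy number of the line was not analysed here, and its part in these densities was not tested.

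The peaks were weakly enriched and fairly uniform. The median fold was 3.49 in the shared call, with quartiles of 3.29 and 3.76 and a range of 2.34 to 5.53. The best overlapping replicate peak had a median fold of 3.84 in replicate 1 (2.42 to 7.22) and 3.96 in replicate 2 (2.65 to 6.17). The median width was 989 bp (119 to 7718 bp) and the median −log10 q was 3.42. The median fold was 3.50 for intergenic peaks near genes, 3.52 for peaks far from genes and 3.36 for gene-end peaks, so the classes differed by less than the spread within each. Gene-end peaks ranked lower in the replicate lists. The median of the mean fold percentile was 63.4 for them, against 72.8 in gene bodies, 73.2 near genes and 75.1 far away. Near the limit of the 3 kb rule, the 55 members over 3 and up to 4 kb from a gene end had a median fold of 3.39, and the 56 peaks at 2 to 3 kb, just outside the rule, had 3.50.

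Several measures that are not named in the rule separated gene-body peaks from gene-end peaks and, less often, from intergenic ones. They are not wholly independent of the rule, since a wide peak is more likely to touch a gene-end window and to overlap another peak. Across 6 measures and 3 comparison classes, 4 of 18 differences passed an adjusted p of 0.05 (two-sided Fisher's exact test, Benjamini-Hochberg adjustment over the 18). Both replicates had a q-value of 0.01 or better at 837 of 1579 gene-body peaks (53.0%), against 188 of 423 gene-end peaks (44.4%). The difference was 8.56 percentage points (95% interval 3.20 to 13.8, adjusted p = 0.0108 by Fisher's exact test). In the replicate lists taken alone, 1572 of 4780 gene-body peaks of replicate 1 (32.9%) were found in replicate 2, against 370 of 1409 gene-end peaks (26.3%), with an adjusted p of 1.92e-05 by Fisher's exact test. In the other direction, 1617 of 2102 gene-body peaks of replicate 2 (76.9%) were found in replicate 1, against 368 of 572 gene-end peaks (64.3%, adjusted p = 4.68e-08) and 706 of 977 peaks far from genes (72.3%, adjusted p = 0.0272), by the same Fisher's exact test.

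The differences from gene-end and far peaks depended on the settings. With 10 kb in place of 3 kb the q-value difference was 5.68 points (adjusted p = 0.0643, Fisher's exact test) and the difference for replicate 1 peaks was 2.07 points (adjusted p = 0.174). The recurrence of replicate 2 peaks against peaks far from genes missed the threshold with windows of 1 kb (3.88 points, adjusted p = 0.0644, Fisher's exact test) and 10 kb (4.38 points, adjusted p = 0.0643), with the left-out stretches widened by 2 Mb (4.11 points, adjusted p = 0.0637) and when recurrence needed an overlap of 50% of both peaks (2.55 points, adjusted p = 0.380). At that overlap the difference from gene-end peaks was 5.25 points (adjusted p = 0.0612, Fisher's exact test).

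Against intergenic peaks near genes, none of the 6 measures passed with the 3 kb window. With a 1 kb window, recurrence of replicate 1 peaks was lower in gene bodies than near genes by 3.22 points (difference −3.22, adjusted p = 0.00980, Fisher's exact test). Recurrence of replicate 2 peaks was 76.9% in gene bodies and 76.6% near genes, a difference of 0.285 points (95% interval −2.52 to 3.14). Matching at 50% of both peaks in both replicates came closest, at 327 of 1579 (20.7%) in gene bodies and 271 of 1098 (24.7%) near genes (adjusted p = 0.0510, Fisher's exact test). Widths over 1 kb were seen in 783 of 1579 gene-body peaks (49.6%) and 375 of 680 peaks far from genes (55.1%), with the same adjusted p of 0.0510 by Fisher's exact test. Neighbouring peaks are not independent, and these p-values compare peaks within 1 pair of libraries.

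The 1579 peaks lay in 1002 coding genes, 6.52% of the 15358 whose body reached beyond the gene-end windows. A single peak was held by 699 genes, 2 by 187, 3 by 46 and 4 by 27. The remaining 43 genes held 5 to 12 peaks each and 276 in all. Replicate 1 placed gene-body peaks in 2140 genes (13.9%) and replicate 2 in 1194 (7.77%). The replicates shared 1094 of these genes, which is 51.1% of those of replicate 1 and 91.6% of those of replicate 2.

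Longer genes held a peak more often, and the density per Mb also differed with length. Hosts had a median searched body of 133 kb, against 25.3 kb for genes without a peak. The share of genes with a peak was 0.455% below 10 kb, 1.75% from 10 to 25 kb, 3.79% from 25 to 50 kb, 8.90% from 50 to 100 kb, 17.2% from 100 to 250 kb, 25.8% from 250 to 500 kb and 33.3% above 500 kb. Per Mb of body, the density was 1.04 in the shortest class, highest at 1.84 (1.70 to 2.00) in genes of 100 to 250 kb, and 0.944 (0.826 to 1.07) in genes above 500 kb. The longest genes thus held fewer peaks for their length than genes of intermediate size.

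The 6 longest genes with no shared peak were RBFOX1, CNTNAP2, PTPRD, DLG2, CSMD1 and LRP1B, each with 1894 to 2468 kb of searched body. RBFOX1 is a neuronal splicing regulator, CNTNAP2 and DLG2 are proteins of axons and synapses, and PTPRD is a receptor phosphatase of synapses. Replicate 2 had no gene-body peak in any of the 6, and replicate 1 had 2 in CNTNAP2 and none in the other 5.

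Along the host, peaks leaned towards its start. Among 1302 pairs of a peak and a host of known strand, in which a peak in 2 overlapping genes can count with each, 732 (56.2%, Wilson 95% interval 53.5 to 58.9) lay on the side nearer the start, which makes up as much of the searched length as the other side. Replicate 1 gave 55.5% of 3961 such pairs and replicate 2 gave 57.1% of 1731. The lean was seen also in peaks that were found in 1 replicate only, with 55.0% of 2670 in replicate 1 and 57.3% of 410 in replicate 2. It was clearest near the gene ends. From 3 to 10 kb after the start there were 1.33 peaks per Mb (1.08 to 1.61), against 0.903 (0.701 to 1.14) from 3 to 10 kb before the end. Replicate 1 had 4.65 against 2.70 and replicate 2 had 2.03 against 1.31 in the same intervals. From the start the density was highest at 25 to 50 kb, at 1.73 per Mb, and was 1.08 beyond 200 kb. From the end it was highest at 100 to 200 kb, at 1.83 per Mb.

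**Figure D3:**
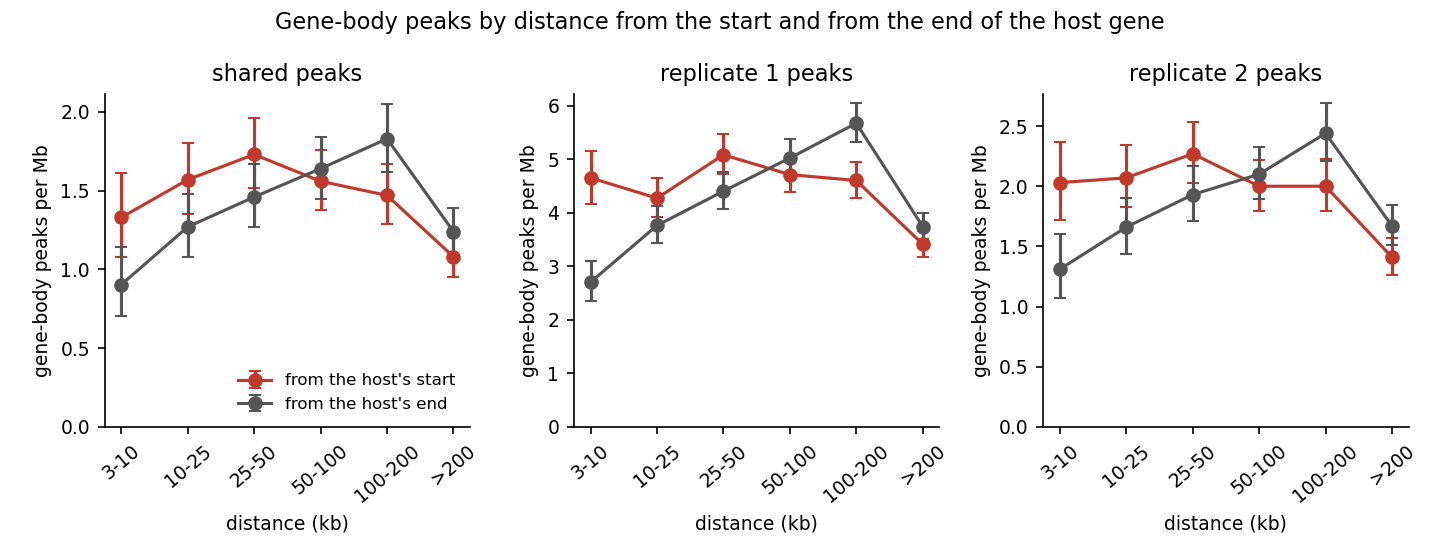
Gene-body peaks per Mb by distance in kb from the start (red) and from the end (grey) of the host gene, for shared peaks and for each replicate, with exact Poisson 95% intervals. At 3 to 10 kb the density near the start (1.33 shared peaks per Mb) is above that near the end (0.903) in all 3 panels.

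Hosts of a gene-body peak also carried a shared peak at 1 of their own ends more often than other genes. This was so for 105 of 1002 hosts (10.5%), against 271 of 14356 other genes (1.89%). The shares in hosts were above those in other genes in every length class, for instance 38 of 347 against 44 of 1670 at 100 to 250 kb, and 8 of 99 against 2 of 198 above 500 kb. Peaks that neighbour each other enter both counts, so no test was made. Within genes, joining members less than 10 kb apart gave 1375 groups, of which 1206 held 1 peak, 141 held 2 and 28 held 3 or more.

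The genes with the most peaks encode a mixture of channel, matrix, cytoskeletal and signalling proteins. KCNMA1 held 12 peaks over 402 kb of its 762 kb searched body, with folds of 3.19 to 4.04 in the shared call, 3.37 to 4.24 in replicate 1 and 3.61 to 4.79 in replicate 2. Of these, 4 stood within 12.4 kb (chr10:77501752-77514108). CAST, which encodes the calpain inhibitor calpastatin, also held 12, over 677 kb, with folds of 3.28 to 3.86. These 12 are counted to CAST through the 813 kb body that the gene table gives it. That body is long, and its extent was not checked here. In both genes 8 of the 12 reached a q-value of 0.01 in both replicates.

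EXT1, a glycosyltransferase that builds heparan sulfate, held 10 peaks over 155 kb, with folds of 3.29 to 3.81. Within it, 5 peaks stood within 27.1 kb (chr8:118008650-118035711), the group with the most members. THSD4, a matrix protein that promotes fibrillin assembly, held 10 over 622 kb with folds of 3.13 to 4.25. TENM2, a cell adhesion protein of the teneurin family, held 10 over 653 kb with folds of 3.20 to 3.59. AOPEP, an aminopeptidase, held 9 over 160 kb with folds of 3.07 to 3.44.

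SMAD3 was the densest of the 12 genes, with 8 peaks over 87.8 kb, which is 64.7 per Mb of its 124 kb searched body. The 8 had shared folds of 4.09, 3.52, 3.37, 3.54, 3.20, 2.90, 4.11 and 4.35 from the start of the gene onwards. Replicate 1 folds were 3.97, 3.84, 4.08, 3.52, 3.61, 3.60, 4.69 and 4.46 in the same order, and replicate 2 folds were 4.42, 5.07, 3.42, 3.99, 3.52, 3.47, 4.29 and 4.03. The strongest in the shared call lay 113 kb from the start (chr15:67178747-67179040, 294 bp), and 5 of the 8 reached a q-value of 0.01 in both replicates. The peak around the internal start printed above, 60.4 kb into the gene, was among the weaker ones.

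The other genes of this set were DST (a giant linker of cytoskeletal filaments), ARHGAP26, SBF2 (a myotubularin-related protein) and TRIO with 8 peaks each, and ATXN1 (ataxin 1, a chromatin-binding protein) with 7. TRIO held 1 of the widest members, 6016 bp (chr5:14263456-14269471), made of 2 peaks in replicate 1 and 3 in replicate 2. The widest of all, 7718 bp, lay in MB21D2 (chr3:192882933-192890650) and covered 4 peaks of replicate 1 and 1 of replicate 2. In each of the 12 genes replicate 1 had more gene-body peaks than the shared list, from 12 in ARHGAP26 to 24 in CAST.

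**Figure D4:**
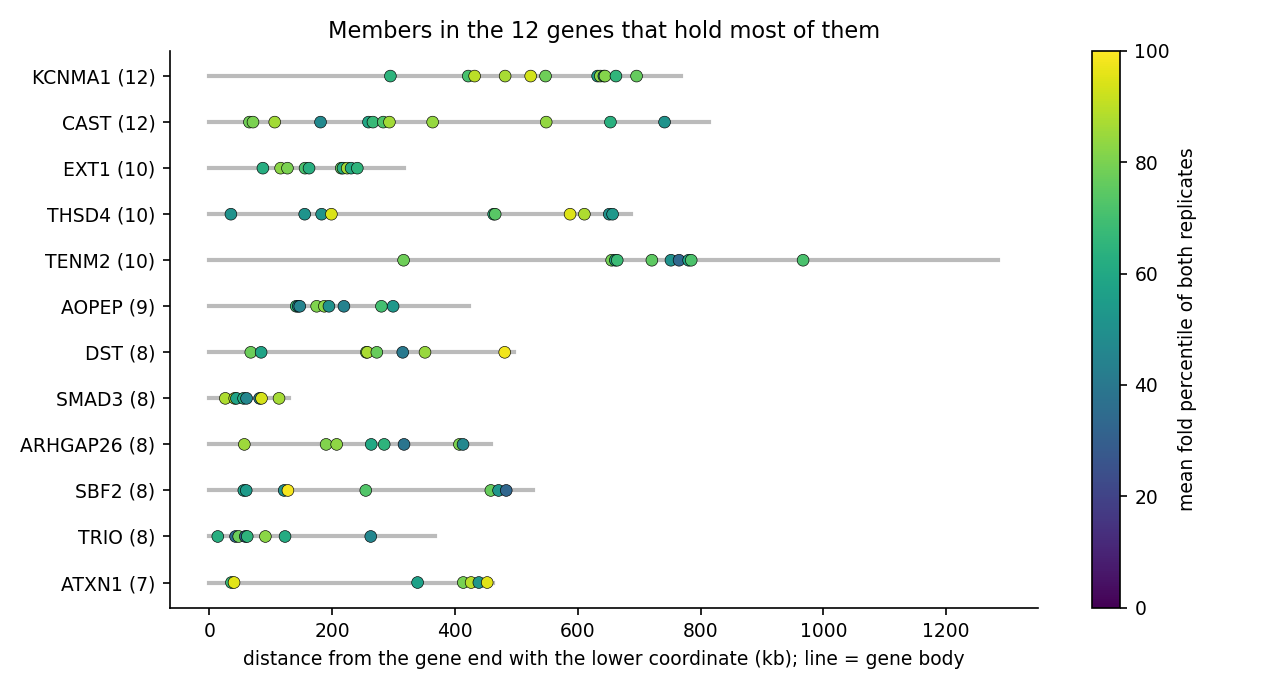
Position of each gene-body peak (points) along the 12 genes that hold most of them (grey lines, number of peaks in brackets), in kb from the gene end with the lower coordinate. Colour gives the mean of the peak's fold percentiles in the 2 replicate lists. SMAD3, the shortest of the 12, holds 8 peaks over 87.8 kb, and TENM2, the longest, holds 10 over 653 kb.

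None of the 12 strongest members lay in these 12 genes. Ranked by the mean of their fold percentiles in the 2 replicates, the first lay in DENND5B (chr12:31518128-31519602), a DENN-domain protein, with a fold of 4.15 in the shared call, 5.41 in replicate 1 and 5.84 in replicate 2. CGNL1, a cingulin-like protein of cell junctions, followed with 4.97, 5.61 and 5.45 (chr15:57485989-57486504). COL12A1, a fibril-associated collagen, had 4.73, 5.21 and 6.11 (chr6:75195967-75197023). That peak lay 9.56 kb from the gene's start, and no other shared peak was within 1615 kb of it.

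PDE4D, a cAMP phosphodiesterase, had a peak 873 kb from its start with folds of 5.12, 5.15 and 5.41 (chr5:59648941-59649492). LPP, a LIM protein of focal adhesions, had 4.67, 4.96 and 5.54. The other members of the 12 lay in EEF1E1, GCOM1 and MYZAP (overlapping genes), PLEKHA5, LRRC8D (a subunit of volume-regulated anion channels), LDLRAD3, BICD1 (a dynein adaptor) and TSPAN14 (a tetraspanin), with shared folds of 3.72 to 5.22. Their replicate folds were 4.95 to 5.64 in replicate 1 and 4.98 to 5.40 in replicate 2.

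In 8 members both replicates reached a −log10 q of 5. The peaks in DENND5B, CGNL1, COL12A1 and PDE4D were among them through high folds. The other 4 had low or moderate folds with high significance. They lay in SLCO5A1 (a fold of 3.71 over 119 bp, −log10 q 15.3), in the overlapping bodies that the gene table gives for RANBP2 and SH3RF3 (a fold of 2.38) and, for 2 of them, in DUX4 (2.56 and 2.59, −log10 q 18.3 and 12.0). DUX4 lies in a repeat array near the end of chromosome 4 and RANBP2 has near-identical relatives, so the placement of reads there is uncertain. The mean fold percentiles of the RANBP2 and DUX4 members were 2.17 to 5.20, near the bottom of both replicate lists.

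The remaining values follow 20 lists of genes grouped by function. Since long genes hold more peaks, each list is given by its number of genes with a peak and by its peaks per Mb. These stand beside 6.52% of all genes and 1.43 (1.37 to 1.51) per Mb over all searched genes. The 6.52% is not matched for length. The share with a peak was 0.455% for bodies below 10 kb and 33.3% above 500 kb, so counts in lists of long genes exceed 6.52% more easily. All lists were assembled with earlier results of these data known, so their counts are descriptions and none was tested. Counts with replicate 1 alone, given below, stand beside 13.9% of genes and 4.37 peaks per Mb of gene body in that replicate.

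Genes of cell adhesion to matrix and of the cytoskeleton were among the richer lists. Of 28 focal adhesion and integrin genes, 14 held a peak, with 6.57 peaks per Mb (4.37 to 9.50). PALLD (palladin, an actin scaffold) held 5, with shared folds of 4.22, 3.51, 3.48, 3.12 and 3.39. TLN2 (talin 2, which links integrins to actin) held 4, LPP 3 and TNS3 (a tensin) 3. Of 26 actin and myosin genes, 7 held a peak, with 3.95 per Mb, among them EPS8 with 5 and ABLIM1, CALD1 and MYO1E with 4 each. The actin and myosin count was 20 of 26 with replicate 1 alone and 4 without chromosomes 5, 15 and 20.

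The list of the YAP/TEAD pathway and its targets had 14 of 27 genes with a peak (51.9%) and 8.15 peaks per Mb (5.57 to 11.5). YAP and TEAD proteins form the transcription complex at the end of the Hippo kinase pathway. ASAP1 (an Arf GTPase-activating protein) held 5, with shared folds of 3.58, 3.69, 4.28, 3.64 and 4.14, and all 5 reached a q-value of 0.01 in both replicates. RBMS3 held 4, WWC1 (KIBRA, an upstream Hippo component) 4 and STK3 (the Hippo kinase MST2) 3.

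Junction lists went different ways. Desmosome and hemidesmosome genes had the highest density of the 20 lists, 9.36 per Mb (4.84 to 16.3), but this came from 3 of 17 genes, DST with 8 peaks, PLEC (plectin) with 3 and PKP2 (plakophilin 2) with 1. Adherens and tight junction genes had 0.508 per Mb (0.138 to 1.30), with 4 of 27 genes holding 1 peak each. These were CGNL1, MAGI2, CTNND1 (p120 catenin) and PARD3B. With replicate 1 alone the counts were 6 of 17 desmosome and hemidesmosome genes and 11 of 27 adherens and tight junction genes.

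Signalling receptors and their effectors lay above the background density. For TGF-beta and BMP signalling, 6 of 27 genes held a peak, with 5.14 per Mb, of which 8 of 15 peaks were in SMAD3. SMAD7, an inhibitor of the pathway, held 2 in a searched body of 25.1 kb, and SMURF2, a ubiquitin ligase of the pathway, held 2. For growth factor receptors it was 9 of 27, with 4.03 per Mb. EGFR held 5, all with a q-value of 0.01 in both replicates, with shared folds of 3.93, 3.51, 3.09, 3.18 and 3.61. IGF1R held 4, MET (the hepatocyte growth factor receptor) 2 and ROR2 2. For inflammatory and NF-kB signalling it was 7 of 27, with 4.70 per Mb (2.03 to 9.26). CD44 (a hyaluronan receptor) held 2, and JAK1, LIFR and IL1RAP held 1 each. For collagens and matrix it was 7 of 29, with 3.26 per Mb, led by COL5A2 with 5 peaks and COL4A2 with 2. The 5 peaks of COL5A2 lay in the 403 kb of searched body that the gene table gives it, against 200 kb for COL4A2. As for CAST, the extent of that body was not checked here. With replicate 1 alone, 12 genes of TGF-beta and BMP signalling, 14 growth factor receptors, 12 inflammatory genes and 12 matrix genes held a peak. Requiring a q-value of 0.01 in both replicates left 4 inflammatory and 3 matrix genes.

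Lists nearer the background were steroid and nuclear receptors (6 of 27, 2.32 per Mb), transcription factors of epithelium and stroma (12 of 32, 2.23), guidance cues and receptors (9 of 28, 2.14), phosphodiesterases and cAMP (7 of 30, 1.88) and SWI/SNF subunits (3 of 28, 1.81), and the intervals of all 5 densities include 1.43. NR3C1, the glucocorticoid receptor, held 4 peaks with shared folds of 3.43, 3.11, 4.36 and 4.62. The last of these, chr5:143377131-143377369, had 4.77 in replicate 1 and 4.95 in replicate 2. TCF7L2 (a Wnt pathway factor) held 4, RUNX1 3 and RUNX2 2. SEMA5A, a semaphorin, held 7 with shared folds of 3.01 to 4.13. Among the subunits of the complex that BRG1 belongs to, BICRAL held 2, PBRM1 1 and DPF3 1. With replicate 1 alone, 14 guidance genes, 16 phosphodiesterase and cAMP genes and 5 SWI/SNF genes held a peak.

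Lists of genes of muscle and of neuronal synapses had densities whose intervals lay below the background. Muscle and heart genes had 1 of 24 with a peak, or 0.132 per Mb (0.00335 to 0.738). Long neuronal synapse genes had 7 of 28, but over 33.7 Mb of body this was 0.327 per Mb (0.163 to 0.584). Immune cell genes had 2 of 28 (0.801 per Mb), endothelial genes 1 of 21 (1.40), hepatocyte genes 1 of 22 (1.09) and housekeeping genes, which are short, 1 of 21 (1.70). The intervals of the last 4 lists include the background of 1.43. With replicate 1 alone, 15 neuronal, 5 muscle, 6 endothelial and 3 housekeeping genes held a peak, and endothelial genes had 9.10 replicate 1 peaks per Mb, against 4.37 in gene bodies as a whole. No hepatocyte or housekeeping gene held a peak with a 10 kb window or with a q-value of 0.01 required in both replicates.

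**Figure D5:**
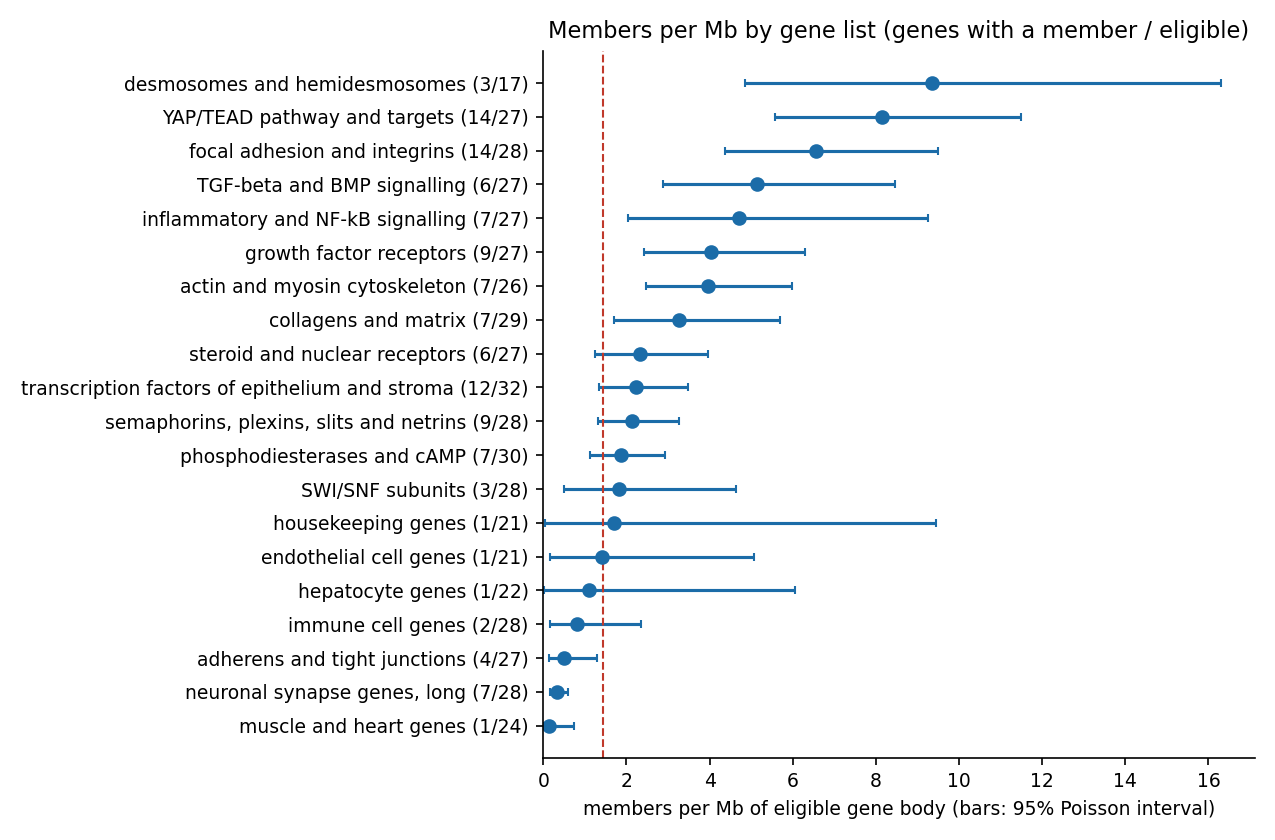
Gene-body peaks per Mb of searched body for 20 gene lists, with exact Poisson 95% intervals, and the number of genes with a peak of those searched in brackets. The dashed line marks 1.43 per Mb over all searched genes. The intervals of 8 lists, from desmosomes and hemidesmosomes (9.36) to collagens and matrix (3.26), lie wholly to its right, and those of adherens and tight junctions (0.508), long neuronal genes (0.327) and muscle genes (0.132) wholly to its left. The intervals treat peaks as independent, which neighbouring peaks in a gene are not, and no list was tested.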

How the data were processed

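BRG1 ChIP-seq peaks of 2 replicate libraries were analysed from 3 deposited lists of broad peaks, 1 per replicate and 1 overlap list. The submitters' processing notes name Bowtie2, MACS2, bedtools, SAMtools, Picard, cutadapt and Trim Galore, and build GRCh38.p12. Versions, settings and any pooling of reads are facts not given in the sources used here. Each deposited list holds the authors' fold (a ratio of ChIP signal over estimated background) and −log10 p and q-values, which served only inside their own list to describe, rank or select peaks. The deposited score column was not used. Coordinates are those of the lists, counted from 1.

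Coding gene bodies came from a RefSeq table of GRCh38.p14, which holds 19126 coding genes, 15101 with a strand from the RefSeq start table. Searched bodies are positions over 3 kb from every coding gene end, on the arms. Replicate peaks were found in the other list at an overlap of 1 bp. The rule was applied to the replicate lists as well.

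Shares carry Wilson, differences Newcombe and densities exact Poisson 95% intervals. Shares were compared by two-sided Fisher's exact test with Benjamini-Hochberg adjustment over 18 tests. The scripts were tested on simulated data. Tools were scipy 1.17.1, numpy 2.4.6, matplotlib 3.10.9 and pandas 2.3.3 under Python 3.11.15.

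Of 21 gene lists, 1 is not reported here, though totals over the lists include it. The members and the gene lists were chosen with earlier results of these data known. Genes named are the hosts of the 12 members with the highest mean fold percentile, the 12 genes with most members (ties by fold percentile), up to 4 per list, the 6 longest without a member and the hosts of members with −log10 q of 5 in both replicates. The internal-start and sequence analysis was added after the data were seen. Alternatives changed the gene-end window, the arms, chromosomes, clusters, thresholds and replicates.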

Additional observations from a re-analysis of the deposited data

How the results depend on the processing

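Differences are gene body minus the other class, in percentage points. Of 105 alternative values of the share differences, 82 kept their direction and their side of the threshold, most of them not past it in either case. With a 1 kb gene-end window, wider peaks against far ones passed (−5.80), as did replicate 1 recurrence against near ones (−3.22), replicate 2 recurrence against far ones missed (3.88), and recurrence turned sign against far (−0.379, replicate 1) and near ones (−0.840, replicate 2). With 10 kb, calls were lost for the q-value (5.68) and replicate 1 recurrence (2.07) against gene ends and replicate 2 recurrence against far peaks (4.38). Sign turned for matching (−3.07), width (5.32) and neighbours (−1.44) against gene ends, and for neighbours (0.0397), replicate 2 (−0.850, near) and replicate 1 recurrence (−0.0674, far). With dropped stretches widened by 2 Mb, replicate 2 recurrence was −1.06 (near, turned) and 4.11 (far, call lost). With 50% overlap it was −1.41 (near, turned), 2.55 (far, call lost) and 5.25 (gene ends, call lost). Neighbours against near peaks turned without chromosomes 5, 15 and 20 (1.54) and at 5 kb (0.583). The q-value share turned against near peaks with 1 peak per cluster (0.123) and against gene ends at −log10 q of 5 (−0.203). The cause was not tested. Requiring −log10 q of 2 in both replicates left 837 peaks in 632 genes and 13.9% of genes over 100 kb with a peak, against 20.7% in full. Leaving out replicate 1 or 2, the rule gave 2102 or 4780 peaks, 1194 or 2140 genes, 24.2% or 41.4% of long genes, and 151 or 233 different list genes with a peak, against 133 in full. The lean to the start ranged from 55.5% to 57.1% over the replicates left out. Requiring the whole peak in the body changed nothing, since the 3 kb rule implies it. Among counts per list, 24 moved by over 1.5 times, 15 of them without replicate 2.

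No paired analysis was possible because the series has a single BRG1 group and the input has no peak list here. Depth is unknown, so weak peaks cannot be told from missed ones, and peaks near each other are not independent.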

Other observations

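Chromosome X, outside the rule, held 3 shared gene-body peaks, 1 in DMD (fold 3.61) and 2 in PLAC1 (4.04 and 3.27), while replicate 1 had 21 there and replicate 2 had 4. Hairpins of 2 microRNAs lay in members, MIR4492 in BCL9L, chr11:118910619-118912418 (folds of 3.49 in the shared call, 4.15 in replicate 1 and 3.82 in replicate 2) and MIR6870 in JAG1, chr20:10648766-10649825 (3.57, 3.75 and 3.74). JAG1 encodes a Notch ligand. The midpoints of 146 of the 1579 gene-body peaks also lay in the body of a long non-coding RNA gene. The same was so for 317 of the 1098 intergenic peaks near genes, a larger share. How much of each kind of DNA such RNA genes cover was not measured, so the 2 shares have no baseline.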
